A study of Mus musculus with 7 samples.

Results

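The cartilage collagens are encoded by 7 genes, chosen by symbol from the 42689 mouse genes in the tables: Col2a1 (collagen II), Col9a1, Col9a2 and Col9a3 (collagen IX), Col10a1 (collagen X), and Col11a1 and Col11a2 (collagen XI). Their RNA was followed through 7 libraries of hindlimb tendon from mice of C57BL/6 background in a study of heterotopic ossification, in which bone forms by way of cartilage within injured soft tissue. The tenotomy group (n = 2) was the left-leg Achilles tendon site 3 weeks after it was cut and the back was burned with a block at 60 °C for 18 s over 30% of the body surface. The contralateral group (n = 3) was the uncut right-leg tendon of mice with that same burn and tenotomy, also at 3 weeks, so these libraries are not from healthy animals. The uninjured group (n = 2) was tendon of wild-type mice with neither burn nor tenotomy. The labels give no age, no transgene and no drug for the 7 libraries, and do not say whether libraries came from separate animals or whether a tenotomy and a contralateral library share a mouse. P-values therefore measure the spread between these libraries.

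Collagen II is the main fibril-forming collagen of cartilage. Collagen XI is built into the same fibrils and is known to limit their thickness, while collagen IX is a fibril-associated collagen that sits on their surface and links them to other matrix. Collagen X is a short network-forming collagen made by hypertrophic chondrocytes, the enlarged cells of cartilage that is about to be replaced by bone. Intact tendon is built mostly of collagen I, with small amounts of fibril-regulating collagens, and cartilage-like matrix is known at its bony insertion.

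Library totals lay between 25927171 and 36725106 estimated counts, of which between 76.4% and 81.4% fell on 5 features that are no members, leaving between 4934057 and 8375626 counts for all others. The 5 were Gm42418, Lars2, Mir6236, mt-Rnr2 and an unmatched transcript. Their share was 76.4% to 77.2% in contralateral, 81.3% and 80.8% in tenotomy, and 81.4% and 79.4% in uninjured replicates 1 and 2. Uninjured replicate 2 thus lay between the contralateral and the tenotomy libraries in this share. Mitochondrial ribosomal RNA took 8.45% to 10.4% of counts in contralateral, 2.60% and 2.56% in tenotomy, and 2.75% and 7.16% in uninjured replicates 1 and 2; its part in the values of the collagens was not tested. The 2 uninjured libraries stood apart from each other. On CPM (a count divided by its library's scaled total, here with TMM scaling), taken as log2 over 16028 features, uninjured replicate 1 lay at a Euclidean distance of 59.6 and 61.1 from the tenotomy libraries and 114 from uninjured replicate 2, which itself lay between 64.5 and 67.4 from the contralateral libraries. Uninjured replicate 1 was nearer to the tenotomy than to the contralateral mean for 74.4% of features and uninjured replicate 2 for 30.0%. Whether a label was exchanged was not tested, and an exchange would change what each uninjured value below stands for. The libraries labelled uninjured are therefore given singly, and results that rest on them are given with and without each.

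The sums of 3 marker lists, for cells that tendon samples can hold, moved with the same split. The summed level of 8 skeletal muscle markers was 7020 to 9211 CPM in contralateral, 743 and 740 in tenotomy, 919 in uninjured replicate 1 and 6875 in uninjured replicate 2. That of 7 macrophage and leukocyte markers was 19.4 to 25.2 CPM in contralateral, 92.9 and 96.5 in tenotomy, 99.1 in uninjured replicate 1 and 24.6 in uninjured replicate 2. The 6 tenocyte markers summed to 150 to 248 CPM in contralateral, 315 and 311 in tenotomy, and 294 and 228 in uninjured replicates 1 and 2. No marker of these 3 lists was at 0 in all libraries, and their part in the values of the collagens was not tested. In bulk tissue, fewer cells of a type and less RNA per cell cannot be told apart.

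Col2a1 (ENSMUSG00000022483.17, chr15:97975602-98004695, minus strand, GRCm38, GENCODE M21) encodes the chain of collagen II. It was counted at 0.412, 0.655 and 0.402 CPM in the contralateral libraries (11, 23 and 13 counts), 126 and 125 CPM in the tenotomy libraries (4635 and 3763 counts), and 16.6 and 1.55 CPM in uninjured replicates 1 and 2 (461 and 45 counts). Both tenotomy libraries were far above all others, and both uninjured libraries were above all 3 contralateral ones. With counts pooled over the libraries of each group, its CPM was 252 times higher at the tenotomy site than in contralateral tendon (95% interval 189 to 343, counting error only). In the fit of these 5 libraries the log2 fold change was 7.97 (SE 0.15, adjusted p = 6.35e-11, edgeR quasi-likelihood test with Benjamini-Hochberg adjustment), the fifth largest rise of 16014 features (rank 5).

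The 2 full-length transcripts of Col2a1 differ by exon 2, which encodes a cysteine-rich domain of the amino propeptide. The form with it (IIA) is known from chondrocyte progenitors and the form without it (IIB) from differentiated chondrocytes. Exon 2 (chr15:98000403-98000606, minus strand, coding) and the join that replaces it are shown because the forms are told apart by them. Capitals mark exon 2 in the first and the bases taken from exon 3 in the second, with 12 bases of each neighbouring exon.

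Col2a1 form with exon 2, the exon within its flanks: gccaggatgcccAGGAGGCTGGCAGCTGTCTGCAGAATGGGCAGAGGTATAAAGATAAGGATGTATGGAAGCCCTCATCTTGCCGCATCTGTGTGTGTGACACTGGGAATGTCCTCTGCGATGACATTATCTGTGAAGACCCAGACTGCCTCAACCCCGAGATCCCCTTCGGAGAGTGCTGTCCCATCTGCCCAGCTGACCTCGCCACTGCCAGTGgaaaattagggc

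Col2a1 form without exon 2, exon 1 joined to exon 3: gccaggatgcccGAAAATTAGGGC

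At the tenotomy site nearly all Col2a1 counts were assigned to the form without exon 2. The form with exon 2 took 40 of the counts against 4541 for the other in tenotomy replicate 1, which is 0.88% (95% Wilson interval 0.64 to 1.19), and 0 against 3729 in tenotomy replicate 2 (0.0%, up to 0.1%). In uninjured replicate 1 it took 20 against 438, or 4.35% (2.84 to 6.65). The other libraries were split in no common way. In uninjured replicate 2 the form with exon 2 took 35 against 4, in contralateral replicates 1 and 2 it took 11 against 0 and 20 against 3, and in contralateral replicate 3 it took 0 against 12. Only reads over the 204 bases of exon 2, over the join, or over 38 further bases at the start separate the forms, out of a length of 5104 bases. The intervals take every assigned count as informative and cover counting error only. They are therefore too narrow in every library, those of tenotomy included, and do not show that libraries differ. An assignment made from 11 to 39 counts is weakly determined.

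**Figure D1:**
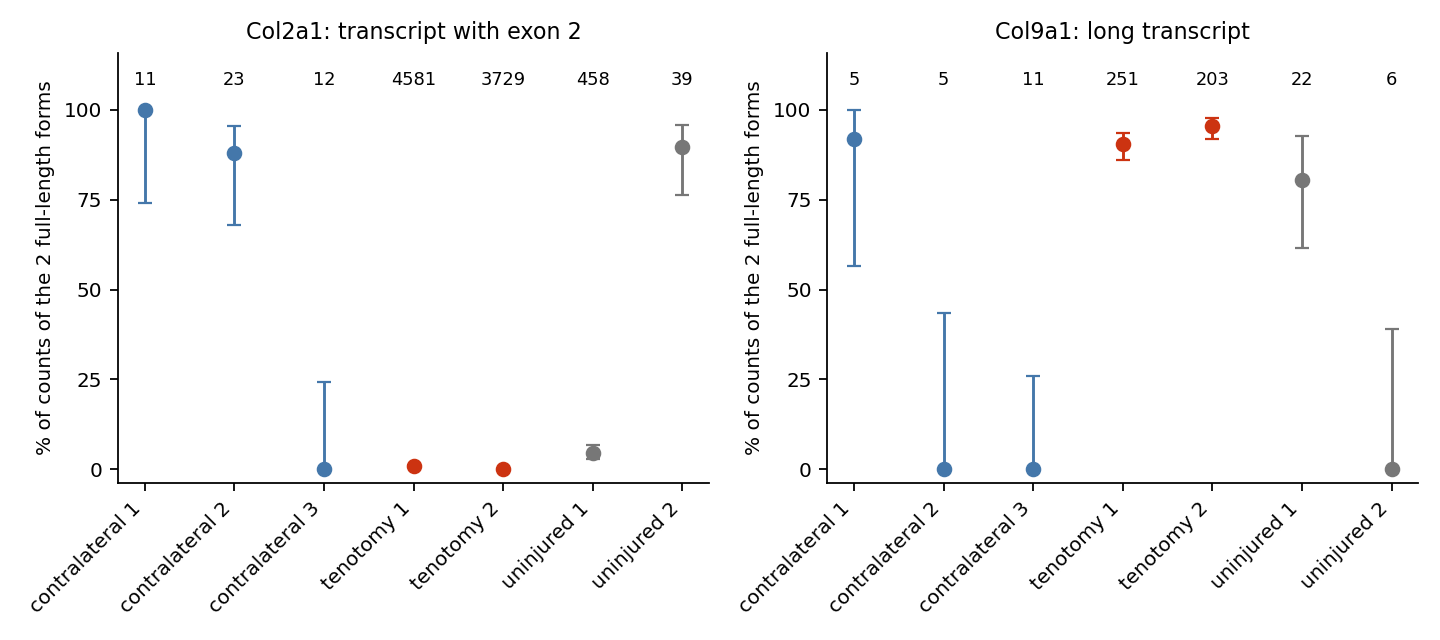
Share of counts assigned to the Col2a1 transcript with exon 2 (left) and to the long Col9a1 transcript (right), as % of the counts of both full-length forms, for each library, with 95% Wilson intervals and the summed count above each point. Blue is contralateral, red tenotomy and grey uninjured. The intervals cover counting error only and are too narrow, since reads over shared bases do not separate the forms. The 2 tenotomy libraries sit at 0.88% and 0.0% for Col2a1 and at 90.5% and 95.4% for Col9a1, while libraries with few counts scatter over the whole range.

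Col11a1 (ENSMUSG00000027966.20, chr3:114030540-114220718, plus strand) encodes a chain of collagen XI that is also made in fibroblasts, where it can pair with collagen V chains. Its level was 14.0, 11.4 and 9.52 CPM in contralateral (373, 399 and 308 counts), 138 and 133 CPM in tenotomy (5071 and 4000 counts), and 104 and 21.7 CPM in uninjured replicates 1 and 2 (2899 and 630 counts). Tenotomy was highest, uninjured replicate 1 was 1.3 times below the tenotomy mean, and the contralateral libraries were lowest, with no overlap between groups. The log2 fold change between tenotomy and contralateral was 3.54 (SE 0.14, adjusted p = 3.601e-09, edgeR).

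Col11a2 (ENSMUSG00000024330.17, chr17:34039437-34066685, plus strand), the other collagen XI chain with a gene of its own, had the narrowest range of the 6 members that rose. It stood at 7.65, 4.92 and 4.08 CPM in contralateral (204, 173 and 132 counts), 28.2 and 27.4 CPM in tenotomy (1038 and 822 counts), and 13.3 and 17.2 CPM in uninjured replicates 1 and 2 (370 and 500 counts). On this scale the groups again did not overlap, and uninjured replicate 2 was the higher of its pair. As TPM, which is per length, uninjured replicate 2 (0.919) was above both tenotomy libraries (0.760 and 0.852) when all transcripts were summed. With protein-coding transcripts alone, uninjured replicate 2 (0.573) was below both tenotomy libraries (0.717 and 0.786). The log2 fold change from contralateral to tenotomy was 2.34 (SE 0.18, adjusted p = 7.117e-07, edgeR), and it was 1.28 when computed from length-scaled TPM (SE 0.24, adjusted p = 0.00338).

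The 3 chains of collagen IX come from separate genes and assemble into a single heterotrimer. Col9a1 (ENSMUSG00000026147.16, chr1:24177610-24252684, plus strand) was counted at 0.187, 0.171 and 0.340 CPM in contralateral, 6.96 and 6.83 in tenotomy, and 0.790 and 0.206 in uninjured replicates 1 and 2. Col9a2 (ENSMUSG00000028626.5, chr4:121039385-121055322, plus strand) was at 0.0750, 0.0285 and 0.0618 CPM in contralateral, which are 2, 1 and 2 counts, at 3.51 and 3.27 in tenotomy, and at 0.575 and 0.138 in uninjured replicates 1 and 2. Col9a3 (ENSMUSG00000027570.15, chr2:180597790-180622189, plus strand) was at 0.225, 0.114 and 0.0309 CPM in contralateral, 7.56 and 6.70 in tenotomy, and 1.29 and 0.0344 in uninjured replicates 1 and 2.

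All 3 collagen IX genes were thus highest in the 2 tenotomy libraries and next in uninjured replicate 1. The contralateral libraries and uninjured replicate 2 held between 1 and 11 counts of each. Log2 fold changes from contralateral to tenotomy were 4.86 for Col9a1 (SE 0.21, adjusted p = 5.476e-09), 5.89 for Col9a2 (SE 0.30, adjusted p = 2.189e-08) and 5.88 for Col9a3 (SE 0.28, adjusted p = 1.113e-08), all by edgeR. As ratios of CPM from counts pooled over each group, with counting intervals, these were 29.5 (19.3 to 47.6), 64.0 (27.0 to 199) and 61.4 (34.0 to 124). Tcfl5 overlaps Col9a3 on the opposite strand and had at most 21 counts in any library.

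Col9a1 has 2 full-length forms that start at separate sites. The long form is known as that of cartilage and the short form, which lacks the large amino-terminal domain, is known from the eye. The bases before each start are shown because the forms differed in count at the tenotomy site. They are RefSeq promoter windows (GRCm38.p6) cut at the GENCODE start, and the second lies in no exon of the long form.

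Col9a1 long form, chr1:24177360-24177609, plus strand: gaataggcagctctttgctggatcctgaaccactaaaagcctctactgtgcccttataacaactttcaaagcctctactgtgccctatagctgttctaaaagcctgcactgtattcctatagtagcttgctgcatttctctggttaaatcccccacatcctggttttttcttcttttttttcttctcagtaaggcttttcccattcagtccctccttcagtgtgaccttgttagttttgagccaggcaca

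Col9a1 short form, chr1:24194953-24195186, plus strand: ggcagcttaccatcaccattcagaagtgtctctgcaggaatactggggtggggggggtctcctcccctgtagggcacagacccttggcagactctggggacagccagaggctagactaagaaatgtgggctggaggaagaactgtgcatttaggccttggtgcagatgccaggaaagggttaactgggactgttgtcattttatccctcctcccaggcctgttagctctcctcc

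No capitals are set in these windows, since no motif searched was found. The long form took 227 counts against 24 in tenotomy replicate 1 (90.5%, 95% Wilson interval 86.2 to 93.5), 194 against 9 in tenotomy replicate 2 (95.4%, 91.8 to 97.6) and 18 against 4 in uninjured replicate 1 (80.5%, 61.5 to 92.7). In uninjured replicate 2 and contralateral replicates 2 and 3 the long form was at 0 against 6, 5 and 11 counts, and in contralateral replicate 1 it took 5 against 0. The short form was therefore at 24 or fewer counts in each of the 7 libraries, and by these assignments the rise of the gene lay in the long form. Reads over bases that both forms share do not separate them, so these intervals are also too narrow.

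Col10a1 (ENSMUSG00000039462.4, chr10:34389981-34397085, plus strand) was the member that did not follow the others. It was at 0.487, 0.598 and 0.464 CPM in contralateral (13, 21 and 15 counts), 0.245 and 0.700 CPM in tenotomy (9 and 21 counts), and 0.790 and 0.619 CPM in uninjured replicates 1 and 2 (22 and 18 counts). The tenotomy libraries were the lowest and one of the higher values, so they overlapped the contralateral range on both sides. The log2 fold change between them was -0.19 (SE 0.43, adjusted p = 0.758, edgeR), and it was 0.43 without tenotomy replicate 1. The ratio of CPM from counts pooled over each group was 0.863 with a counting interval of 0.529 to 1.39. Nt5dc1 overlaps Col10a1 on the opposite strand and had at most 59 counts.

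The Col10a1 promoter window is shown as that of the member that did not move. Searched motifs were ACAAAG and AACAAT (bound by Sox proteins), TGTGGT (bound by Runx proteins), each on both strands, and TATAAA (the TATA box) on the gene's strand, in the 250 bases before the RefSeq start. Capitals mark ACAAAG at -185 and TATAAA at -32 from the start.

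Col10a1, chr10:34389731-34389980, plus strand: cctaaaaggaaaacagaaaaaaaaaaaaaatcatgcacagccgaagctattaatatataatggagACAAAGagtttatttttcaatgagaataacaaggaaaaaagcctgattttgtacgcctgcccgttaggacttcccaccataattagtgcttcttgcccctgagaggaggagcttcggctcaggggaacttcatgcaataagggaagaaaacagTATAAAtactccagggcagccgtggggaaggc

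These motifs were held by 16.5% (ACAAAG), 9.4% (AACAAT), 14.0% (TGTGGT) and 7.6% (TATAAA) of 32851 windows of that length. Besides Col10a1, TATAAA was found before Col11a2 at -143, and none of the 4 was found before Col9a1 (both starts), Col9a2 and Col11a1. Windows of Col2a1 and Col9a3 were not used here. A match in letters is a description of the window and does not show a binding site.

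**Figure D2:**
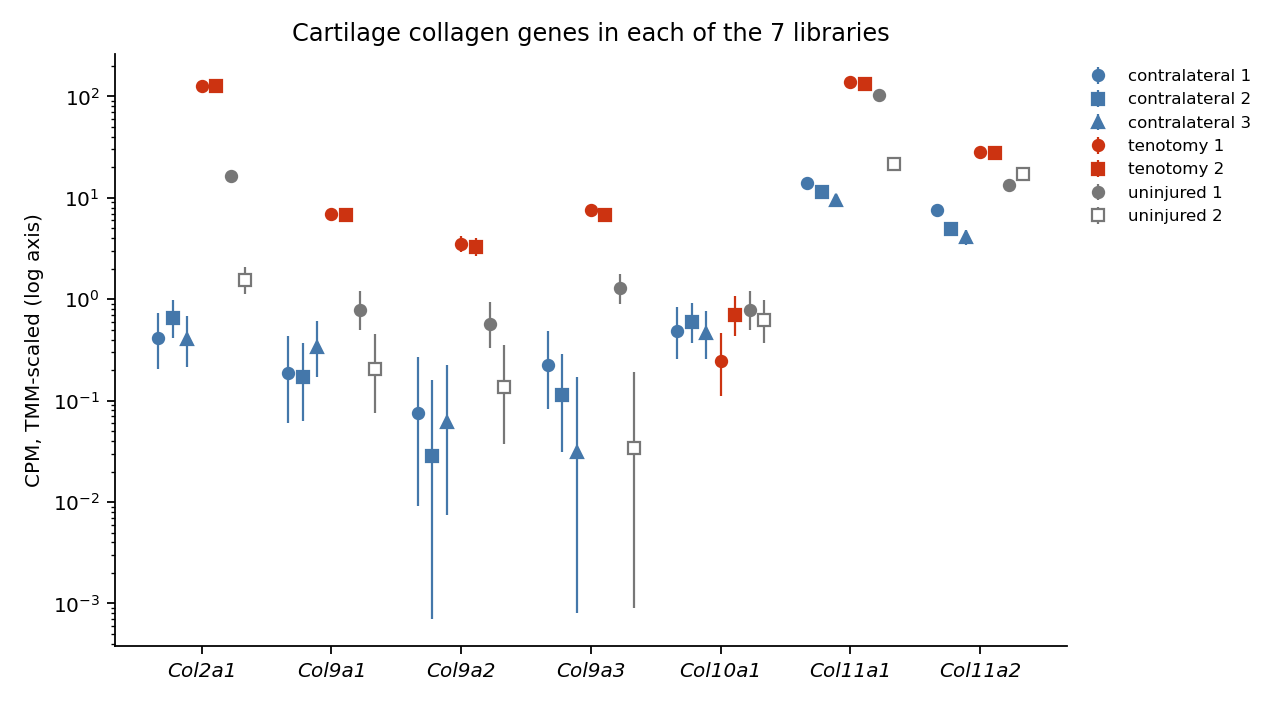
CPM of each member (log axis) in each library, with 95% Poisson intervals of the counts. Red tenotomy points lie above all blue contralateral points for 6 members, filled grey uninjured replicate 1 lies between them, and Col10a1 alone shows all 7 libraries between 0.245 and 0.790 CPM.

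Between tenotomy and contralateral tendon, 6 of 7 members rose and none fell. Across all features tested, 22.1% rose and 46.1% changed in either direction, and the groups did not overlap, with tenotomy higher, for 31.9% of features and 6 of 7 members. The median log2 fold change was 4.86 over the members and -0.01 over all 16014 features. All 7 members passed the filter on low counts, but Col9a1, Col9a2 and Col9a3 did so only through the tenotomy libraries, so their place among the tested features is tied to that group and the counts and median are descriptions. With tenotomy replicate 1 alone, whose title number runs on from those of the contralateral libraries, the same 6 passed (15.5% of features rose), with Col2a1 at 7.98 and Col11a2 at 2.37 on the log2 scale. In the fit of all 7 libraries, whose spread includes the uninjured pair, where 13.6% of features rose, they passed with adjusted p between 0.0143 and 0.0167 (edgeR).

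Between genes, levels were compared as TPM, which is per length. In both tenotomy libraries the order was Col2a1 (3.96 and 4.27 TPM), Col11a1 (2.59 and 2.81), Col11a2 (0.760 and 0.852), Col9a3 (0.462 and 0.427), Col9a1 (0.282 and 0.293), Col9a2 (0.169 and 0.252) and Col10a1 (0.011 and 0.035). Neighbours in this order did not overlap between the 2 libraries. Col2a1 made up 48.1% and 47.8% of the members' summed TPM of 8.24 and 8.95.

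Collagen XI led in all other libraries. In contralateral tendon, Col11a2 (0.532, 0.318 and 0.216 TPM) and Col11a1 (0.305, 0.251 and 0.180 TPM) were the highest members, and the summed TPM of all members was 0.911, 0.648 and 0.448. Their order depends on which transcripts are summed: with protein-coding transcripts alone the ratio of Col11a1 to Col11a2 was 0.993, 1.35 and 2.26, against 0.574, 0.788 and 0.833 with all. In uninjured replicate 1, Col11a1 led with 2.37 TPM against 0.591 for Col2a1 and 0.562 for Col11a2. In uninjured replicate 2, Col11a2 (0.919 TPM) led Col11a1 (0.493) and Col2a1 (0.0943).

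The ratio of collagen II to collagen XI message set the tenotomy libraries apart from uninjured replicate 1. Col2a1 over Col11a1, as a ratio of TPM, was 1.53 and 1.52 in tenotomy, 0.249 in uninjured replicate 1, 0.191 in uninjured replicate 2, and 0.042, 0.093 and 0.075 in contralateral. With protein-coding transcripts alone it was 1.39 and 1.41 in tenotomy, 0.249 and 0.092 in uninjured replicates 1 and 2, and 0.044, 0.084 and 0.057 in contralateral. Both tenotomy values were above all 5 others either way, while uninjured replicate 2 lay near the highest contralateral value with protein-coding transcripts alone.

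**Figure D3:**
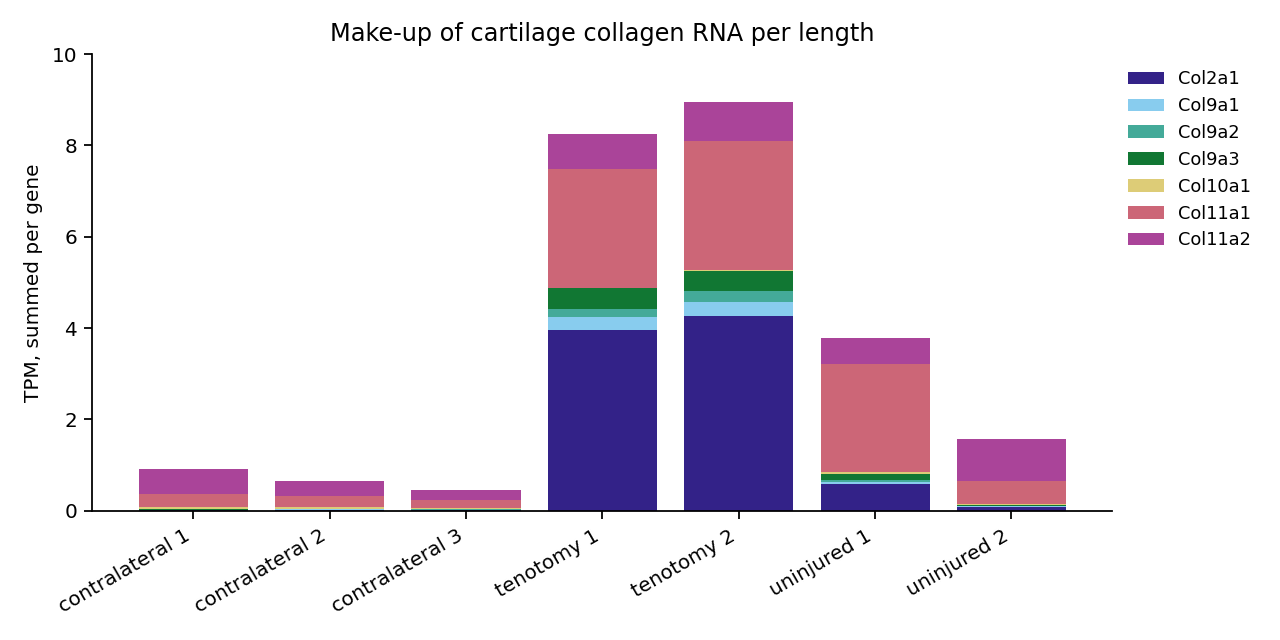
TPM of the 7 members, summed per gene and stacked, in each library. The tenotomy bars reach 8.24 and 8.95 TPM with Col2a1 as the largest segment, uninjured replicate 1 reaches 3.78 with Col11a1 as the largest, and the other bars stay at or below 1.57.

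Against uninjured tendon no member passed, nor did any of the 16028 features (0.0%, edgeR, lowest adjusted p = 0.261; 1741 features and 5 of 7 members had an unadjusted p under 0.05, which was 10.9% of features). Log2 differences of tenotomy from uninjured were 3.80 for Col2a1 (SE 0.89, adjusted p = 0.450), 3.79 for Col9a1 (SE 0.43, adjusted p = 0.261), 3.25 for Col9a2 (SE 0.45, adjusted p = 0.363), 3.44 for Col9a3 (SE 0.76, adjusted p = 0.450), 1.11 for Col11a1 (SE 0.60, adjusted p = 0.507), 0.87 for Col11a2 (SE 0.29, adjusted p = 0.450) and -0.61 for Col10a1 (SE 0.47, adjusted p = 0.617). Col9a1, Col9a2 and Col9a3 passed the filter of this fit only through the tenotomy libraries. Their place among the tested features is tied to that group, so the member counts here are descriptions. Both tenotomy libraries were above both uninjured ones for 6 of 7 members and for 20.1% of features in CPM. For Col11a2 this did not hold in TPM of all transcripts, but it held in TPM of protein-coding transcripts alone. Its log2 difference with length-scaled TPM, which takes all transcripts, was 0.24 (SE 0.37, adjusted p = 0.846, edgeR). The number of features that passed changed with the method and with the uninjured libraries used, and the cause was not tested. DESeq2 called 140 features (0.873%), of which 5 were higher and 135 lower at the tenotomy site. Col2a1 was among those higher (adjusted p = 0.00163, DESeq2). No adjusted p was given by DESeq2 for Col9a1, Col9a2, Col9a3 and Col10a1.

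Set against uninjured replicate 1 alone, the library nearest to the tenotomy site, collagens II and IX still differed and collagen XI did not pass. In that fit the lone library is assumed to vary like the other groups, and 14 of 16877 features passed (0.083%), 10 of them higher at the tenotomy site (0.0593%). Among these 10 were Col2a1 (log2 difference 2.93, SE 0.17, adjusted p = 2.324e-05), Col9a1 (3.12, SE 0.26, adjusted p = 0.000745), Col9a2 (2.55, SE 0.30, adjusted p = 0.00799) and Col9a3 (2.46, SE 0.28, adjusted p = 0.00669), all by edgeR. The others included Cnmd (chondromodulin, a cartilage glycoprotein), Matn3 (matrilin of cartilage), Hapln1 (the link protein of cartilage proteoglycan), Rap2a (a small GTPase) and an unmatched transcript, named here after their values were seen. Col11a1 differed by 0.38 (SE 0.18, adjusted p = 0.873) and Col11a2 by 1.07 (SE 0.24, adjusted p = 0.468).

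Against uninjured replicate 2 alone, again a lone library, all members but Col10a1 (-0.43) had a log2 difference above 0. The median over all 17018 features of that fit was 0.0037. Col9a2 and Col9a3 passed the filter of that fit only through the tenotomy libraries. Their place among its features is therefore tied to that group. The log2 differences were 6.34 for Col2a1, 5.04 for Col9a1, 4.59 for Col9a2, 7.55 for Col9a3, 2.65 for Col11a1 and 0.70 for Col11a2 (edgeR). Col9a3 rests there on 1 count in uninjured replicate 2.

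**Figure D4:**
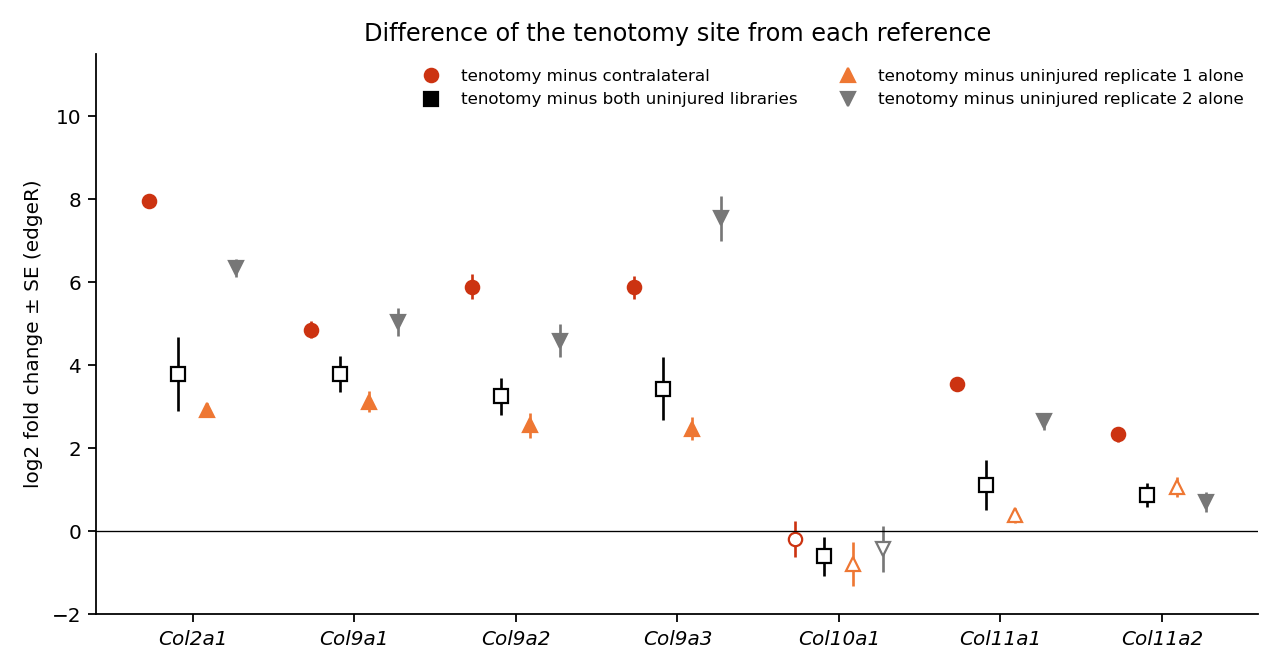
Log2 fold change with its standard error (edgeR) of tenotomy minus each reference, for each member; filled symbols passed an adjusted p of 0.05 and open ones did not. Collagens II and IX are filled against contralateral tendon and against either uninjured library alone, Col11a1 sits at 0.38 and open against uninjured replicate 1, and Col10a1 is open throughout.

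Contralateral tendon was compared with uninjured tendon in the same fit of all 7 libraries, and shares its uninjured libraries with the comparison above. Here too Col9a1, Col9a2 and Col9a3 passed the filter only through the tenotomy libraries, so the member counts are descriptions. No member and no feature passed (0.0%, edgeR, lowest adjusted p = 0.123; 3084 features, or 19.2%, and 4 of 7 members had an unadjusted p under 0.05). Contralateral minus uninjured was -4.18 for Col2a1 (SE 0.85, adjusted p = 0.215), -2.44 for Col11a1 (SE 0.55, adjusted p = 0.215) and -1.46 for Col11a2 (SE 0.27, adjusted p = 0.215) on the log2 scale. For the others it was -1.07 (Col9a1), -2.64 (Col9a2), -2.44 (Col9a3) and -0.44 (Col10a1), with adjusted p between 0.215 and 0.578.

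With uninjured replicate 2 as the only reference, which was the nearer one to the contralateral libraries, Col2a1 (-1.63, adjusted p = 0.0324), Col11a1 (-0.91, adjusted p = 0.0449) and Col11a2 (-1.65, adjusted p = 0.0101) were lower in contralateral tendon. Only 0.311% of 17018 features were lower there (edgeR). Against uninjured replicate 1 alone, the log2 differences were -5.04 for Col2a1, -3.17 for Col11a1, -1.28 for Col11a2 and -0.60 for Col10a1. For Col9a1, Col9a2 and Col9a3 they were -1.74, -3.34 and -3.42. These 3 genes did not pass the filter through the contralateral libraries, so their place in that fit is tied to the libraries where they were higher. Both fits have a lone uninjured library, which is assumed to vary like the other groups.

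Within the uninjured pair, Col2a1 was 10.7 times higher in replicate 1 than in replicate 2 (counting interval 7.87 to 14.9) and Col11a1 4.81 times (4.41 to 5.25). Log2 differences were 1.66 for Col9a1, 1.66 for Col9a2 and 3.78 for Col9a3, the last resting on 36 counts against 1. Col11a2 went the other way, with a ratio of 0.773 (0.674 to 0.886), and Col10a1 differed by 0.32. Thus 5 of 7 members were at least 2-fold higher in replicate 1, against 9.64% of features; with 1 library each there is no test.

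Among other collagens, 7 of 8 fibrillar genes rose from contralateral to tenotomy and none fell (median log2 fold change 2.53). The largest rises were Col3a1 (3.38), Col5a2 (3.10) and Col5a1 (2.94), which encode the collagen III and V chains of wound and tendon fibrils. Of 7 short-chain and fibril-associated genes 5 rose and 1 fell (median 2.60), led by Col14a1 (3.51), Col8a1 (3.26) and Col16a1 (3.18). Col3a1 was at 1808 CPM in uninjured replicate 1, beside 2011 and 1999 in tenotomy. In that library Col11a1 was 1.3 times and Col2a1 7.57 times below the tenotomy mean.

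Of 12 non-collagen genes of cartilage matrix 10 were tested, 8 rose and 2 fell (median 4.15). Acan, the core protein of the large cartilage proteoglycan, rose by 6.60, Matn3 by 5.83 and Cnmd by 4.38 on the log2 scale. Acan was at 0.675, 1.11 and 0.742 CPM in contralateral, 80.7 and 86.1 in tenotomy, and 45.9 and 1.24 in uninjured replicates 1 and 2. The genes that fell were Chad (-3.19) and Cilp2 (-0.55), named outside the rule after their values were seen, of which Chad encodes chondroadherin. Matn1, a matrilin of mature cartilage, had at most 3 counts in any library.

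Of 6 chondrocyte transcription factors 3 rose and 2 fell (median 0.91). Sox9, the main activator of Col2a1, rose by 1.97 and Runx3 by 2.27, while Mef2c, which muscle also expresses, was -2.40. Of 7 hypertrophic chondrocyte genes 5 were tested, 3 rose and 2 fell (median 1.05). The collagenase gene Mmp13 rose by 9.37 and Spp1 (osteopontin) by 2.10, whereas Ibsp (bone sialoprotein) was -6.01. Mmp13 and Spp1 are made by other cell types too. Col10a1, the collagen most used to mark hypertrophic chondrocytes, did not pass. Which cells held these RNAs was not tested.

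Genes that process or bind collagens were described last. Of 15 genes for procollagen folding and cleavage 12 rose and none fell (median 1.31), with Plod2 at 2.67 (a lysyl hydroxylase), P3h1 at 1.97 (a prolyl hydroxylase) and Serpinh1 at 1.95 (the collagen chaperone). Of 6 collagen receptors 3 rose and 2 fell (median 0.24), with Itga11 at 2.53, Itga10 at 1.07 and Ddr1 at -0.81. None of the genes on these lists passed against uninjured tendon in the fit of all 7 libraries, where none of the 16028 features did (0.0%).

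**Figure D5:**
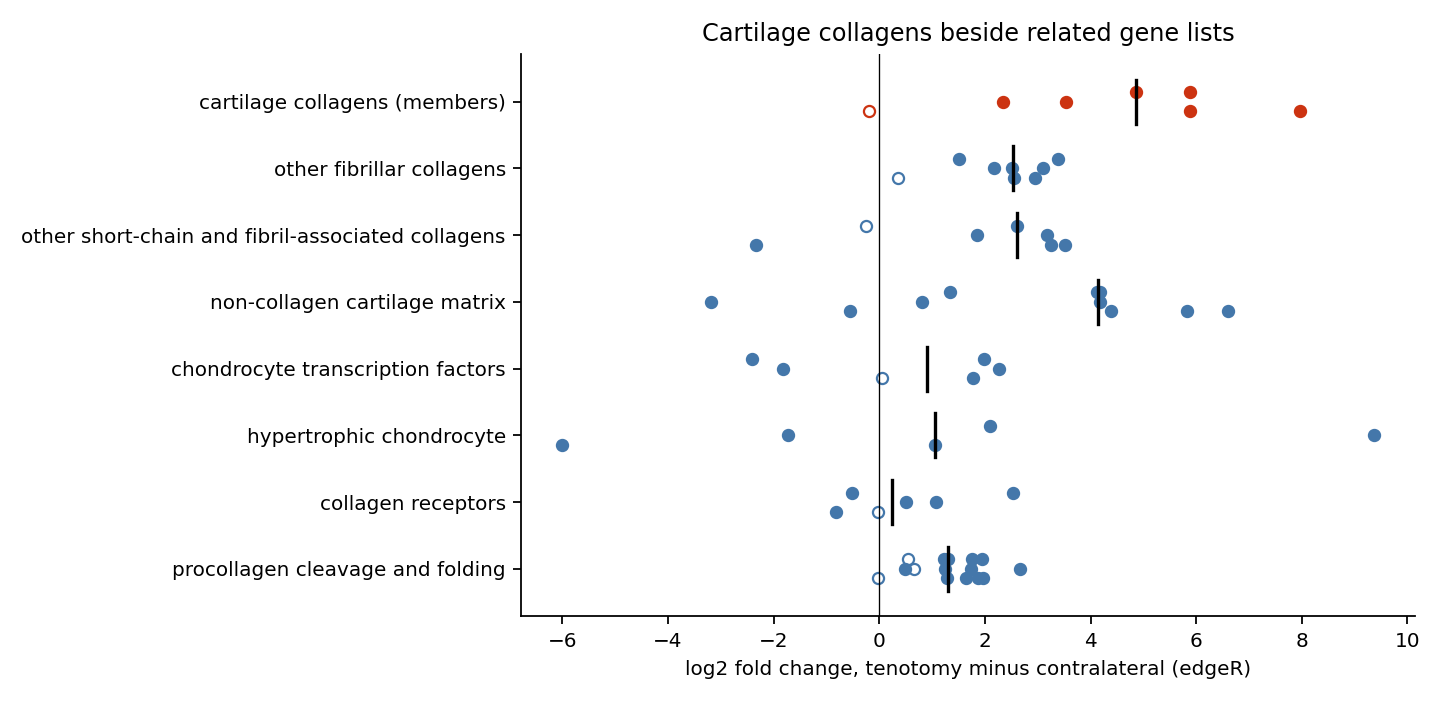
Log2 fold change of tenotomy minus contralateral (edgeR) for each tested gene of the members (red) and of related lists (blue), filled where the adjusted p was under 0.05, with a black bar at each list's median; height within a row only separates points. The members' median of 4.86 is the rightmost, followed by 4.15 for non-collagen cartilage matrix, 2.60 for other short-chain and fibril-associated collagens and 2.53 for other fibrillar collagens.

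The members were unevenly alike over the 7 libraries. Pearson's r of a member's log2 CPM with the mean of the standardised members was 0.986 for Col2a1, 0.980 for Col11a1, 0.971 for Col9a2, 0.941 for Col9a3, 0.921 for Col9a1, 0.895 for Col11a2 and -0.02 for Col10a1; each member is part of that mean, and the points share the split between libraries. Among 7186 other features ranked by the same measure, the most alike were Atl3 (0.994), Ganab (0.994), Cdc42se1 (0.994), Smad1 (0.994) and Fndc3b (0.993). Smad1, a transducer of bone morphogenetic protein signals, was at 3.30, 2.90 and 2.88 CPM in contralateral, 5.14 and 5.90 in tenotomy, and 4.42 and 3.48 in uninjured replicates 1 and 2.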

How the data were processed

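RNA was sequenced from 7 tendon libraries (Trizol and column purification, TruSeq kit, per the labels' protocols). The deposited tables hold 103639 mouse transcripts, each with an estimated count and a TPM beside its lengths, per the file headers. The submitters' processing notes name kallisto and FastQC 0.11.4, with a build of the human genome, although every transcript ID is a mouse ID. IDs were matched without version to GENCODE M21 (GRCm38): 101510 matched, 57625 with the same version. The estimated counts deposited by the authors were summed per gene and rounded, and the TPM deposited by the authors were summed per gene. The range of library totals is in the report.

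Features were filtered with filterByExpr (minimum count 10), scaled by TMM and tested with edgeR 4.0.16 (R 4.3.3), with Benjamini-Hochberg adjustment over all features and a threshold of 0.05. Tenotomy was compared with contralateral in a fit of those 5 libraries, and both with uninjured in a fit of all 7. SE was taken as the size of a log2 fold change over the root of F. Log2 CPM used a prior count of 2. Intervals of counts are exact Poisson, and those of shares Wilson, at 95% (Python 3.11.15, scipy 1.17.1). Genes named were the 7 members, up to 3 per list with the largest changes that passed, and the 5 features most alike to the members with a mean log2 CPM of at least 1. The members, lists and tests were chosen with earlier results of these data known. Of the 10 features higher at the tenotomy site than in uninjured replicate 1 alone, 1 is not reported here. Scripts were tested on simulated data. Alternatives were other scalings, DESeq2 1.42.0, limma-voom (limma 3.58.1), other filters, length-scaled TPM, other thresholds, removal of the 5 most counted features, the title series as covariate, other sample sets and leaving out each library.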

Additional observations from a re-analysis of the deposited data

How the results depend on the processing

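The 6 members that rose from contralateral to tenotomy passed in each alternative run, those leaving out a library included. The count over all features there went from 7385 to 3765 in a test against a 1.5-fold change and to 4643 in the fit of all 7 libraries, and lay between 5245 and 7618 without single libraries. Upper quartile scaling gave 4221 higher and 3267 lower features in place of 3533 and 3852. Tenotomy against uninjured went from 0 features and 0 members to 140 and 1 with DESeq2, 15 and 4 with no filter, and 4 and 2 with the title series as covariate; without single libraries it lay between 0 and 4275 features and 0 and 6 members (4275 and 6 without uninjured replicate 1, 14 and 4 without uninjured replicate 2). Contralateral against uninjured went from 0 and 0 to 218 and 3 with DESeq2, 337 and 3 with no filter, and 2466 and 6 with the title series; without single libraries it lay between 0 and 5393 features and 0 and 6 members (105 and 3 without uninjured replicate 1, 5393 and 6 without uninjured replicate 2). The cause of these changes was not tested. The title series groups libraries by the number in their title. Uninjured replicate 2 is alone in its series, and uninjured replicate 1 shares a series with tenotomy replicate 2. The covariate is therefore no separate check from leaving out uninjured replicate 2. Tenotomy minus uninjured for Col2a1 was 2.92 with the covariate and 2.93 without that library, on the log2 scale.

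Directions that turned gave values that did not pass: Col10a1 between tenotomy and contralateral (0.427 without tenotomy replicate 1, -1.068 without tenotomy replicate 2), and between contralateral and uninjured Col9a1 (0.174) and Col9a3 (1.656) without uninjured replicate 1, against -1.74 and -3.421, both past the threshold, without uninjured replicate 2, and Col10a1 (0.898) with the title series. With length-scaled TPM Col11a2 differed by 1.28 between tenotomy and contralateral, and the log2 difference between the uninjured libraries was 2.50 for Col2a1 and -0.82 for Col11a2. No paired analysis was possible because the labels do not say whether a tenotomy and a contralateral library share a mouse. They give no replicate numbers either, and those used here only number the libraries of a group in sample order. Members at 1 to 23 counts in contralateral tendon, and Col10a1 in every library, are limited by depth.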

Other observations

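Marker lists of further cell types were summed as CPM. The 5 osteoclast markers were at 6.06 to 6.86 CPM in contralateral, 28.1 and 29.2 in tenotomy, and 27.4 and 8.16 in uninjured replicates 1 and 2. The sum was carried by Ctsk (cathepsin K, which is not limited to osteoclasts), at 2.54 to 4.05 CPM in contralateral, 25.37 and 25.96 in tenotomy, and 25.04 and 4.16 in uninjured replicates 1 and 2, and 1 of the 3 markers tested rose from contralateral to tenotomy. The 7 osteoblast markers were at 5.32 to 9.59 CPM in contralateral, 1.77 in both tenotomy libraries, and 2.73 and 4.09 in uninjured replicates 1 and 2, most of the contralateral sum being Ibsp (4.02 to 8.40 CPM), with Bglap and Bglap2 (osteocalcin genes) at 3 counts or fewer in each library. The 5 adipocyte markers were at 118 to 147 CPM in contralateral, 58.1 and 58.3 in tenotomy, and 55.6 and 159 in uninjured replicates 1 and 2. The 4 endothelial markers (44.4 to 48.1, 39.6 and 39.9, then 41.7 and 52.9 CPM) and the 5 erythroid markers (44.2 to 50.1, 69.7 and 65.2, then 63.8 and 64.7 CPM) differed less between the same libraries. The 12 chondrocyte markers, which hold all 7 cartilage collagens, summed to 17.7 to 26.9 CPM in contralateral, 413 and 411 in tenotomy, and 192 and 45.1 in uninjured replicates 1 and 2.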
